A study of Enchytraeus crypticus with 30 samples.

Results

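The 200 gene probes described here had a high signal in unexposed animals of the soil worm *Enchytraeus crypticus* and showed only small differences between nickel-exposed and control animals. They were chosen from the 24653 probes that gave a positive and significant signal on each of the 30 arrays, out of 43750 gene probes on each array. The level of a probe is the log2 of its processed signal minus the median of the 24653 probes on the same array, which is Median normalization. For each treatment, d is the mean level of its 3 arrays minus the mean of the 3 control arrays of the same day. A probe was taken as steady when d was below 0.4 in size in all 8 treatments, and 6721 probes (27.3%) met this condition. The 200 of these with the highest mean level over the 6 control arrays form the list, 0.811% of the probes analysed. The choice thus used the values of all 30 arrays, so the 8 differences and the control levels are given as a description, with no test.

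*E. crypticus* is a small white annelid of soil, and adults with a well developed clitellum, the glandular ring of mature worms, were exposed. Each sample was total RNA from the whole bodies of 20 pooled worms, and every condition had 3 biological replicates. The worms of 8 conditions spent 3 or 7 days in soil spiked with nickel, either as the nitrate (NiNO3) or as nanoparticles (Ni-NPs), at levels that lower reproduction by 20% (EC20) or by 50% (EC50). The other 2 conditions were un-spiked soil for 3 or 7 days. Equal effect on reproduction does not mean equal nickel concentration. In samples of whole bodies, fewer cells of a type and less RNA per cell cannot be told apart.

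In most animal tissues a small number of genes supplies a large share of the messenger RNA, among them genes for ribosomal proteins, the cytoskeleton, energy metabolism and, in annelids, the extracellular blood globins. Genes with little response to a treatment are of practical use as references, because other genes can be measured against them. Nickel is an essential trace element for some organisms and toxic in excess, and particles can act through the ions that they release. The probes here carry only the name of an assembled sequence (contig) or of a single sequencing read, so no role is given to any of them. Each of the 43750 probes had a name of its own, so no member had another probe under the same name. Whether several members come from the same transcript was not tested.

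The control levels of the 200 members ran from 7.84 to 11.57 above the array median, with a median of 8.72. The signal of a probe also depends on how well its own sequence binds, so this order is one of signals and does not rank the amounts of different transcripts. Members held 11 of the first 20 places and 53 of the first 100 by control level. In all, 332 probes lay at or above the lowest member, of which 60.2% were members and 132 were not steady. The names of 86 members are contigs and those of 114 are single reads, so 43.0% were contigs, beside 50.9% of the probes analysed, 45.6% of the steady probes and 55.3% of the 132 probes that were not steady. Contigs made up 25 of the first 50 members, the first 7 among them, and 17 of the last 50. All 200 members were well above background on all 30 arrays, as were 69.0% of the probes analysed. None of their 6000 spots was saturated or marked as an outlier. Their processed signals lay between 7225 and 258295, and the highest of them was 33.2% of the scanner's saturation value.

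**Figure D1:**
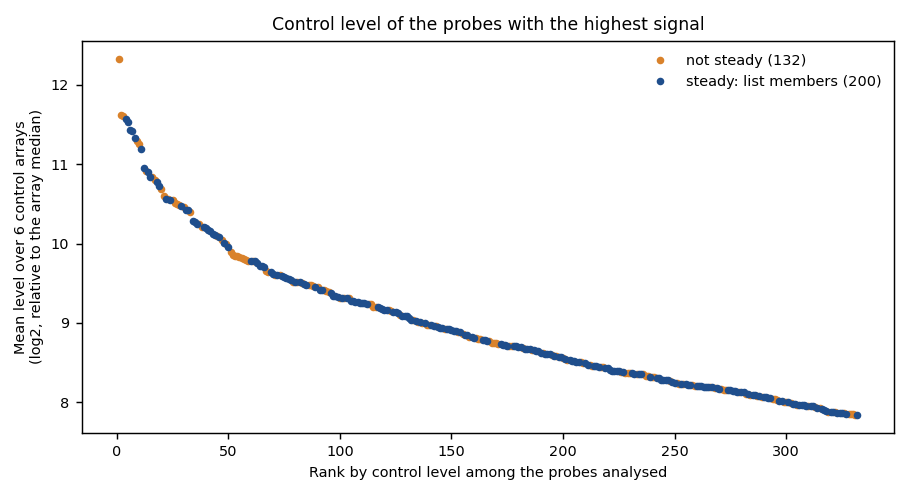
Mean level over the 6 control arrays (log2, relative to the array median) against the rank by this level, for the 332 probes at or above the lowest member. Blue points are the 200 members and orange points the 132 probes that were not steady; both kinds are found along the whole range from 7.84 upward, and the 3 highest points are orange.

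The 6 members with the highest control level were contigs, and they shared the order of the 3 control arrays on each day. Among the treated arrays the order was not always shared. The first, contig04480, ranked 4 of all probes. Its control levels were 11.81, 11.30 and 11.87 at day 3 and 11.63, 11.29 and 11.51 at day 7, a mean of 11.57. On the 12 treated arrays of day 3 the level ran from 11.00 over a median of 11.35 to 11.83, and on those of day 7 from 11.02 over 11.21 to 11.49. The treated arrays, pooled over the treatments, overlapped the controls on both days, but their medians were lower, and all 3 arrays of NiNO3 EC50 at day 7 lay below the 3 controls. Among the treatments, the largest difference was a d of -0.38 in Ni-NPs EC20 at day 3.

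The next 5 followed the same order among the controls. At day 3 the second replicate gave the lowest control level in each of the 6, and at day 7 the first gave the highest. For contig03151 the levels were 11.77, 11.44 and 11.94 in the day 3 controls and 11.64, 11.14 and 11.25 in the day 7 controls. For contig07432 they were 11.71, 11.27 and 11.85, then 11.41, 11.09 and 11.28. Their largest differences were -0.33 in NiNO3 EC50 at day 7 and -0.31 in Ni-NPs EC20 at day 3. The means over the 6 control arrays were 11.41 for contig01918, 11.34 for contig14755 and 11.19 for contig21535. Their largest differences were -0.38 (NiNO3 EC50 at day 7), -0.35 (Ni-NPs EC20 at day 3) and -0.32 (NiNO3 EC50 at day 3). In all 6, the largest difference was thus below 0, with an array-to-array standard deviation (SD, n = 30) between 0.24 and 0.29.

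The members spread more in some cases than in others. The SD over the 30 arrays ran from 0.10 to 0.43 with a median of 0.21, beside 0.44 for the probes analysed. It was under 0.15 in 24 members and over 0.3 in 20. The SD within conditions, pooled over the 10 conditions, had a median of 0.18 over the members, 0.26 over the other steady probes, 0.26 over the 132 probes that were not steady and 0.39 over all probes analysed. The rule favours a small spread, so these values describe the choice as well as the genes.

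The smallest SD belonged to GYUW2K402JUQ0I, a single read. Its levels were 7.89, 7.85 and 8.09 in the day 3 controls and 8.01, 7.94 and 7.96 in the day 7 controls. The treated arrays ran from 7.79 to 8.08 at day 3 (median 7.92) and from 7.78 to 8.20 at day 7 (median 7.90). The treated arrays of each day, pooled over the treatments, overlapped the controls, but at day 7 all 3 arrays of NiNO3 EC20 and all 3 of NiNO3 EC50 lay below the 3 controls. The SD over all 30 arrays was 0.10. The SD was 0.12 in each of the 3 next, GYUW2K401EDPXH, GYUW2K402GVKHQ and GYUW2K401A5OIP, at control levels of 9.54, 9.26 and 8.67. Their largest differences from the controls were -0.20, 0.13 and -0.20.

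At the other end, contig07198, contig11280, contig03354 and GYUW2K401D7R9P had SDs of 0.43, 0.41, 0.40 and 0.38. The spread of contig11280 lay within conditions. Its controls were at 8.81, 8.11 and 8.84 at day 3 and at 9.00, 9.41 and 8.11 at day 7. The treated arrays of contig03354 likewise ran from 7.36 to 8.81 at day 3 and from 7.31 to 8.89 at day 7. Their within-condition SDs were 0.44 and 0.45, both above 0.4, so a mean difference below that limit hides arrays that lay far apart. The spread of contig07198 was between days and is described below.

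In the treatments, the differences of the members were small and mostly below 0 after Median normalization. The median d over the members was -0.072 in NiNO3 EC20, -0.16 in NiNO3 EC50, -0.16 in Ni-NPs EC20 and -0.014 in Ni-NPs EC50 at day 3. At day 7 it was -0.090, -0.14, 0.0012 and -0.14 in the same order. The median over all probes analysed lay between -0.064 and -0.0021. The number of members below 0 ran from 98 of 200 in Ni-NPs EC20 at day 7 to 179 in Ni-NPs EC20 at day 3. The size of the largest of the 8 differences ran from 0.11 to the limit, with a median of 0.28, and it was under 0.2 in 35 members and at least 0.3 in 82.

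**Figure D2:**
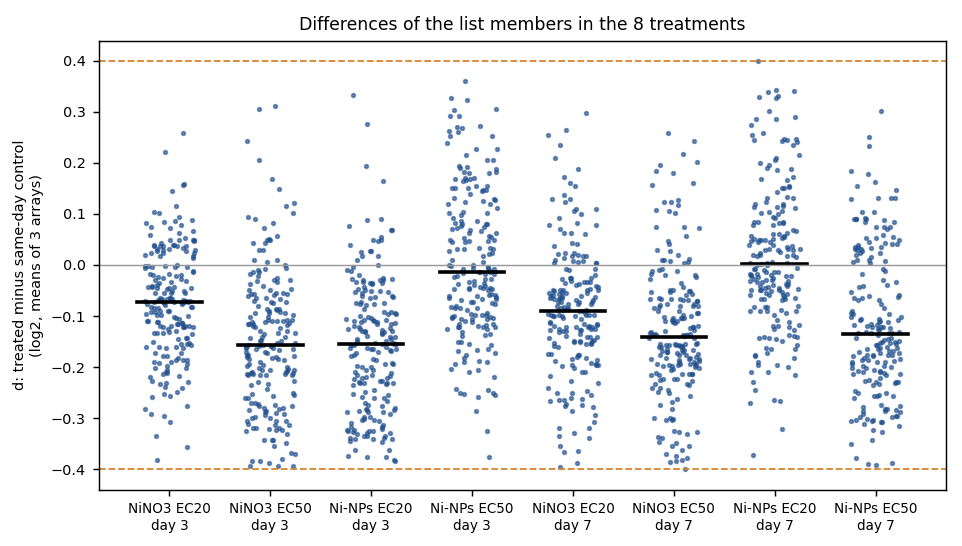
Difference d (treated minus same-day control, log2, means of 3 arrays) of each of the 200 members in the 8 treatments, one point per member. Black bars are medians, from -0.16 to 0.0012, and dashed lines mark the limit of 0.4 that chose the members; the points reach both lines because the limit cut off a wider distribution.

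The limit of 0.4 passed through closely similar probes. The members nearest to it were GYUW2K402G8V8Y with -0.40 in NiNO3 EC50 at day 7, GYUW2K401CXHIS with 0.40 in Ni-NPs EC20 at day 7 and GYUW2K402JS16L with -0.40 in NiNO3 EC20 at day 7. The nearest outside were GYUW2K401DWXWA with -0.40 in NiNO3 EC50 at day 7, GYUW2K401BRWT3 with 0.40 in Ni-NPs EC20 at day 7 and contig14842 with 0.40 in Ni-NPs EC50 at day 3. By level, the last inside were GYUW2K401CZA7T, GYUW2K402G8BQE and GYUW2K402HW54C (7.86, 7.85 and 7.84), and the next outside were GYUW2K401DF7KG, GYUW2K402GKXUL and GYUW2K401ETJWH (7.84, 7.84 and 7.83). In the value that set each limit, these probes differed by less than the spread between replicates.

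The 132 probes of the same signal range that were not steady differed from the controls by at least 0.4 in 1 treatment in 41 cases, in 5 or more treatments in 28 and in all 8 in 5. Their largest difference had a median size of 0.56 and a maximum of 3.19, and in 44 it was under 0.5. Most of these differences were below 0, such as 71 of 78 in NiNO3 EC50 at day 3 and 64 of 70 in NiNO3 EC50 at day 7, whereas 18 of 21 in Ni-NPs EC20 at day 7 were above 0. The 3 probes with the highest control level of all, contig02249, contig18578 and contig01799, were among the 132. Their d in NiNO3 EC50 at day 7 was -0.44, -0.61 and -0.44 (limma, adjusted p = 0.55, 0.22 and 0.31). At an adjusted p under 0.05 (limma), 5 of the 132 probes were called in at least 1 treatment, beside 1.76% of all probes. The rule used these contrasts, so this count is a description.

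None of the 200 members was called in any of the 8 treatments by limma with Benjamini-Hochberg adjustment over the 24653 probes (threshold 0.05). The share of all probes called was 0.357% (NiNO3 EC20), 0.722% (NiNO3 EC50), 0.0487% (Ni-NPs EC20) and 0.231% (Ni-NPs EC50) at day 3. At day 7 it was 0.345%, 1.34%, 0.0122% and 0.195% in the same order, and 1.76% were called in at least 1 treatment. Before adjustment, between 0 and 8 of the 200 members per treatment had p under 0.05, beside 5.24% to 11% of all probes. The rule used these contrasts, and nothing is read from the counts. The 4 members with the smallest adjusted p in a treatment were GYUW2K401EGFBG (adjusted p = 0.30 in NiNO3 EC50 at day 7), contig20386 (0.36 in Ni-NPs EC50 at day 3), GYUW2K401CCD3K (0.39 in NiNO3 EC50 at day 3) and GYUW2K401DZJ3W (0.40 in NiNO3 EC50 at day 3). For GYUW2K401EGFBG d was below 0 in all 8 treatments, from -0.38 in NiNO3 EC50 at day 7 to -0.018 in Ni-NPs EC20 at day 7.

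A difference below 0.4 is not the same as a difference shown to be below 0.4. With 3 arrays per condition the standard error of d had a median of 0.17 over the members, which gives a 95% interval of 0.36 to each side (limma). No member had all 8 intervals within 0.4 of 0. In all but 2 members the 8 intervals lay within 1, that is, within a 2-fold change. In single treatments the interval lay within 0.4 for 23 members (NiNO3 EC50 and Ni-NPs EC50 at day 7) to 64 members (Ni-NPs EC20 at day 7).

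Steadiness was relative to the median of all probes. After Quantile normalization 192 of the 200 members stayed below 0.4 in all 8 treatments, after the study's MedianCD 169 and after its SVCD 180. With the arrays scaled to 7 spike-in transcripts, added to the RNA at labelling, 1 member stayed below 0.4. With that scaling the median d of all probes lay between 0.093 (Ni-NPs EC50 at day 3) and 0.72 (Ni-NPs EC20 at day 3). The within-condition SD of the members was then larger than after Median, as given in the last section, and these shifts were not tested. The scaling adds 1 constant per array, so the members moved by the same amount as all probes. Their differences relative to all probes were those given above. The median d of the members in the treatments, between -0.16 and 0.0012 after Median, lay between -0.086 and 0.062 after Quantile and between -0.13 and 0.17 after MedianCD. The sign of a small common shift of the members therefore changed with the normalization. The nickel effect on the total amount of messenger RNA per worm was not tested.

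In MedianCD and SVCD the arrays are aligned on genes whose condition means show no variation. MedianCD took 28.8% of the probes analysed as no-variation genes and 38 of the 200 members (19.0%). SVCD took 25.2% of the probes and 37 members (18.5%). These selections use the same condition means as the rule, so the shares are given as a description. The 5 highest members, contig04480, contig03151, contig07432, contig01918 and contig14755, were no-variation genes in both, and the 4 members with the smallest SD in neither. Even so, contig03151 was called as lower at day 7 in the treated animals after Median (-0.28, limma, adjusted p = 0.039). The next member by level, contig21535, was a no-variation gene in neither and was called as lower too (-0.34, adjusted p = 0.0092).

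The time of sampling was not used by the rule, apart from one tie. Since d was below 0.4 on both days, the day difference of a treatment lies within 0.8 of that of the controls. In the controls, none of the 200 members was called at day 7 against day 3, beside 1.38% of all probes (limma, Benjamini-Hochberg adjustment, 3 against 3 arrays). Before adjustment 6.0% of the members and 15.4% of all probes had p under 0.05. The median difference (day 7 minus day 3) over the members was -0.10, and it was at least 0.4 in size in 10 members (5.0%), beside 38.1% of all probes and 18.9% of the steady probes. The 3 arrays of one day lay on one side of the 3 of the other in 21 members (10.5%), beside 19.3% of all probes. The smallest adjusted p was 0.066, for contig07198. Leaving out the third day 3 control, the first day 7 control or the third array of NiNO3 EC20 at day 7 gave 1, 2 and 1 members called, contig07198 in each case and also contig21535 without the first day 7 control. No slide held controls of both days, so slide and day cannot be told apart in the controls except through the other arrays.

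In the treated animals, 48 of the 200 members (24%) were called at day 7 against day 3 (12 against 12 arrays), beside 31.9% of all probes (15.2% higher and 16.6% lower). The share of members was thus below that of all probes after Median. After MedianCD and SVCD 44.3% and 45.7% of all probes were called, and the share of members was slightly above these. After Quantile and the 75th percentile 31.4% and 31.2% of all probes were called. With spike-in scaling only 4.72% of all probes and 1 member were called, the member as higher. The differences between the shares were not tested. Of the 48, 39 were lower and 9 higher at day 7 after Median, but 4 were lower and 89 higher among 93 called after MedianCD, 2 and 96 after SVCD, 29 and 31 after Quantile and 53 and 4 after scaling to the 75th percentile. MedianCD and SVCD moved the median day difference of all probes from -0.0084 to 0.22 and 0.24. The direction of the members as a group therefore turned with the normalization, and single members are given below with that in view. After Median the called falls ran from -0.23 to -0.58 with a median of -0.32, and the called rises from 0.22 to 0.71 with a median of 0.30. Only 4 members (2.0%) differed by more than 0.5 in size, beside 23.5% of all probes. Members spread less within conditions than all probes, which the rule favours, and a small spread makes large differences rarer. These shares are therefore a description.

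The 39 lower members were also lower at day 7 in the controls (median -0.26), and the 9 higher ones higher (median 0.10), as the tie between the contrasts favours. All 9 higher members were higher at day 7 in each of the 4 treatments, and 35 of the 39 lower members were lower in each. The members had been called on the mean of these 4 differences, which favours such agreement, so the counts are a description. The medians of the lower members were -0.25 in NiNO3 EC20, -0.35 in NiNO3 EC50, -0.13 in Ni-NPs EC20 and -0.56 in Ni-NPs EC50. Of the lower members 17 were contigs and 22 single reads, and of the higher 3 and 6.

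**Figure D3:**
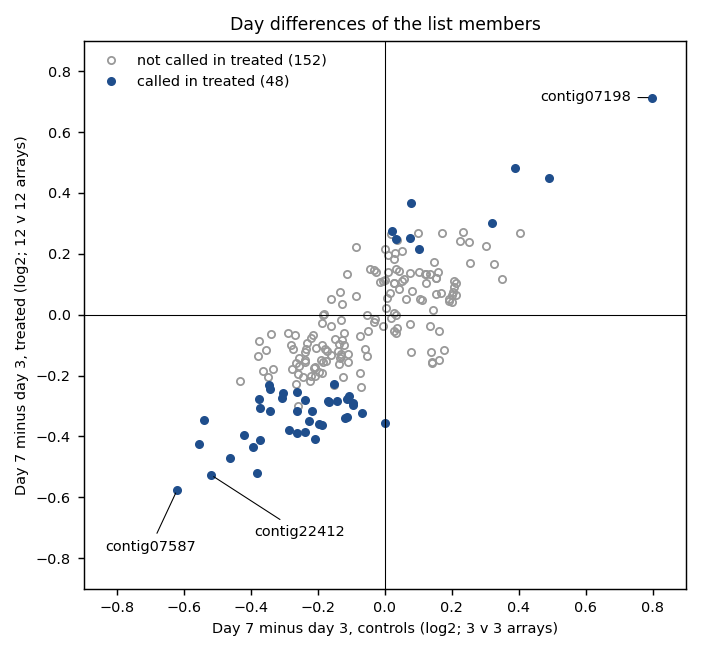
Day difference (day 7 minus day 3, log2, Median normalization) of the 200 members in the treated animals (12 against 12 arrays) against that in the controls (3 against 3 arrays). Filled points are the 48 members called in the treated animals, of which 39 were lower at day 7 after Median but 4 of 93 after MedianCD; contig07198 lies far up to the right. The rule ties the 2 axes to each other.

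The clearest change with time was that of contig07198 (rank 134 of the list, control level 8.39). On the treated arrays its level was 7.89 to 8.42 at day 3, with a median of 8.21, and 8.69 to 9.27 at day 7, with a median of 8.91. The 12 arrays of day 7 were all above the 12 of day 3. The difference was 0.71 with a standard error of 0.11 (limma, adjusted p = 1e-04). In the single treatments it was 0.75 (NiNO3 EC20), 0.70 (NiNO3 EC50), 0.66 (Ni-NPs EC20) and 0.75 (Ni-NPs EC50). In the controls the levels were 7.96, 7.61 and 8.40 at day 3 and 8.29, 8.92 and 9.15 at day 7, so that 1 control of day 7 was below the highest of day 3. That difference was 0.80 with a standard error of 0.22 (adjusted p = 0.066). Within the 5 slides that held treated arrays of both days, the difference was 0.70, 0.72, 0.82, 0.70 and 0.65. Each of these slides held only 1 treated array of one of the days, and the treatments were not the same on both days. The within-slide values here and below therefore mix day with treatment. The treated difference passed the threshold under every normalization, filter and block tried, between 0.66 and 0.96, with an adjusted p of at most 0.043 (spike-in scaling). From its same-day controls it differed by at most 0.33 (Ni-NPs EC20 at day 3).

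The opposite change was clearest in contig22412 (control level 8.55). The treated arrays were at 8.44 to 8.86 at day 3 (median 8.57) and at 7.45 to 8.35 at day 7 (median 8.13). Its controls were at 8.84, 8.78 and 8.81 at day 3 and at 8.41, 8.18 and 8.28 at day 7. All 15 arrays of day 3 were above all 15 arrays of day 7, which held for 1 of the 200 members and for 0.183% of all probes. The treated difference was -0.53 with a standard error of 0.089 (limma, adjusted p = 0.00025), and that of the controls was -0.52 (adjusted p = 0.15). Within the 5 slides the difference was -0.64, -0.22, -0.71, -0.43 and -0.42. With the slide as a block it was -0.45 (adjusted p = 0.0090), and with spike-in scaling -0.54 (adjusted p = 0.15).

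**Figure D4:**
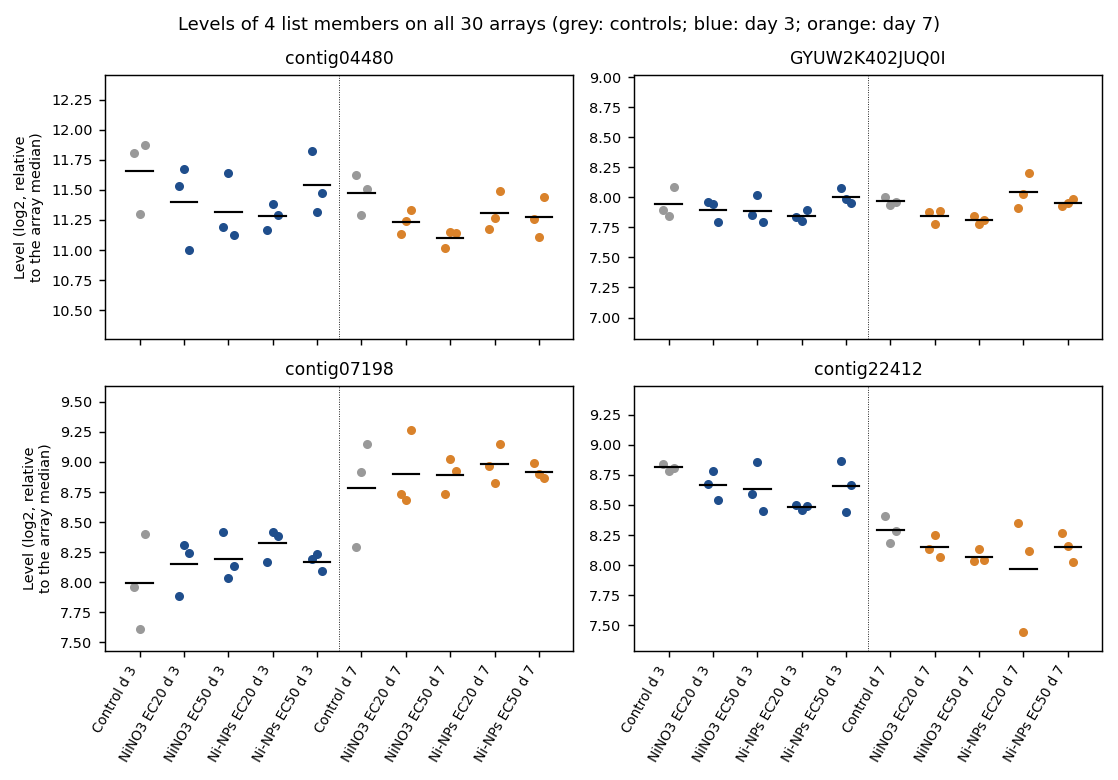
Levels (log2, relative to the array median) of 4 members on each of the 30 arrays, with the mean of each condition as a bar; grey points are controls, blue points treated animals at day 3 and orange points treated animals at day 7. The member contig04480 has the highest control level (11.57) and GYUW2K402JUQ0I the smallest SD (0.10), while contig07198 is higher at day 7 and contig22412 lower.

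Another member, contig07587, fell by 0.58 (standard error 0.10, limma, adjusted p = 0.00043). Its treated arrays ran from 8.54 to 9.20 at day 3 and from 7.95 to 8.78 at day 7, so that the days overlapped. The controls did not overlap, with 8.97, 8.91 and 9.18 at day 3 and 8.61, 8.31 and 8.28 at day 7. The treated difference was -0.96, -0.60, -0.60, -0.50 and -0.25 within the 5 slides, and -0.52 with the slide as a block (adjusted p = 0.010).

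The days also did not overlap on the treated arrays in GYUW2K401BZ2PL (8.55 to 9.00 at day 3, 8.15 to 8.50 at day 7) and GYUW2K401AMEKS (8.47 to 8.92, 8.02 to 8.45). These 2 were named after their values were seen. Their differences were -0.39 (adjusted p = 0.00022) and -0.41 (adjusted p = 0.00023). With contig07198 and contig22412 they made 4 members (2.0%) without overlap, beside 0.442% of all probes.

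The other 5 members named as the largest rises and falls were less firm. The rises were 0.48 for GYUW2K401CLY9Q, 0.45 for GYUW2K402GR058 and 0.37 for GYUW2K401B8CI2, with limma adjusted p of 0.0025, 0.0026 and 0.016. The falls were -0.52 for GYUW2K401D7R9P and -0.47 for GYUW2K402F78YI, with adjusted p of 0.0042 and 0.0027. All 5 kept their direction but missed the threshold with the slide as a block (adjusted p from 0.073 to 0.11). Within slides the difference of GYUW2K402GR058 was 0.84 and 0.87 on 2 of them but 0.047 and -0.15 on others, and that of GYUW2K402F78YI was -0.86 on one and 0.13 on another. Some members named for another reason were also called as lower. The difference was -0.36 for contig20386, -0.32 for GYUW2K402G8BQE and -0.34 for contig21535 (limma, adjusted p = 0.00039, 0.0032 and 0.0092). It was -0.43 for GYUW2K402JS16L and -0.28 for contig03151 (adjusted p = 0.013 and 0.039). Of these, only contig20386 remained called with the slide as a block.

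Slides and scan days moved with part of this contrast. With the slide as a block 7 of the 48 remained called, beside 12.7% of all probes. They were contig07198, contig07587, contig22412, contig20386, GYUW2K401BZ2PL, GYUW2K401AMEKS and GYUW2K401DIF6H. On the arrays of the first scan day alone 7 members were called as well, 6 of them the same, beside 10.8% of all probes. With the scan day as a block 35 were called. The lower members had medians between -0.43 and -0.13 within the 5 slides, and between 28 and 39 of the 39 were lower. The higher members had medians between 0.12 and 0.58 there. Both groups had been called on arrays that include these, which favours such agreement in direction. Without the Ni-NPs EC50 arrays 11 of the 48 remained called, and without those of NiNO3 EC50 30. The share of all probes is not given for the scan day block or for these omissions. Nothing particular to the members is read from those counts.

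Among the single treatments, members were called at day 7 against day 3 in Ni-NPs EC50, with 23 of 200 (11.5%) beside 7.71% of all probes (2.54% higher and 5.17% lower). They were the rise of contig07198 (0.75) and 22 falls from -0.47 to -0.86 after Median, but 12 rises and no fall after MedianCD, 36 rises and no fall after SVCD and the rise of contig07198 alone after Quantile. The shares of all probes after these other normalizations are not given for this contrast. All 23 called after Median were among the 48. No member was called in NiNO3 EC20, NiNO3 EC50 or Ni-NPs EC20, beside 0.548%, 1.04% and 0.0892% of all probes. Before adjustment 8, 22 and 33 members (4.0%, 11.0% and 16.5%) had p under 0.05, beside 15.2%, 17.3% and 11.4% of all probes. The count in Ni-NPs EC50 fell to 0 without any 1 of the 3 arrays of day 3 or the first or second of day 7, to 1 (contig20386) without the third of day 7 and to 15 without replicate 1 or replicate 3 of NiNO3 EC50 at day 7. With the slide as a block it was 0. No slide held Ni-NPs EC50 arrays of both days. The difference between the treatments in their day difference was called in 0 of the 24653 probes for each of the 6 pairs of treatments (limma, interaction). For Ni-NPs EC20 minus Ni-NPs EC50 the median over the members was 0.31, and 29 members (14.5%) had p under 0.05 before adjustment, beside 5.55% of all probes. In the other 5 pairs it was 0 to 6 members (at most 3%), beside 2.11% to 5.86% of all probes.

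Members did not vary independently of each other. Over the 30 arrays, after the condition means were taken off, the correlation between 2 members had a median of 0.36 over 19900 pairs and ran from -0.85 to 0.98. All pairs share the same arrays and the same array median. It was above 0.9 in 242 pairs (1.22%) and below -0.5 in 465. Among the 132 probes that were not steady, the median was 0.21 and 3.11% of the pairs were above 0.9. Average-linkage clustering at a correlation of 0.9 gave 7 sets of 5 or more members, which held 41 members in all. The sets were found in these values and are given as a description.

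The set led by GYUW2K401EPTPV was the steadiest. It held 5 single reads, GYUW2K401EPTPV, GYUW2K402I5PEL, GYUW2K401C3XA9, GYUW2K402JLP82 and GYUW2K402GVKHQ, with control levels of 10.55, 10.47, 10.42, 10.28 and 9.26. Their SDs over the 30 arrays were between 0.12 and 0.16, their pairwise correlations had a median of 0.92, and their treated day differences ran from -0.012 to 0.10. The mean deviation of the set was lowest on the third array of NiNO3 EC50 at day 3 (-0.22) and highest on the third day 3 control (0.29).

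The set of contig11553 held 7 members and had a median correlation of 0.94. Its mean deviation was highest on the third array of Ni-NPs EC50 at day 3 (0.45) and lowest on the third of NiNO3 EC20 at day 7 (-0.42), and 6 of the 7 were called as lower at day 7 in the treated animals after Median. All 5 members of the set of contig23277 were so called, with differences from -0.23 to -0.34. The set of contig01522 held 6 members that moved the other way, with treated day differences from 0.15 to 0.26 and 1 of them called, GYUW2K401DIB3R. That set was at 0.71 on the second array of Ni-NPs EC20 at day 7, the largest deviation in any of the 7 sets, and includes GYUW2K401CXHIS, which reached the limit of 0.40 in that treatment. In the set of contig20785 the 5 members were lowest on the third array of NiNO3 EC50 at day 3 (-0.55). Members of one set are therefore not independent measurements in the counts given above.

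**Figure D5:**
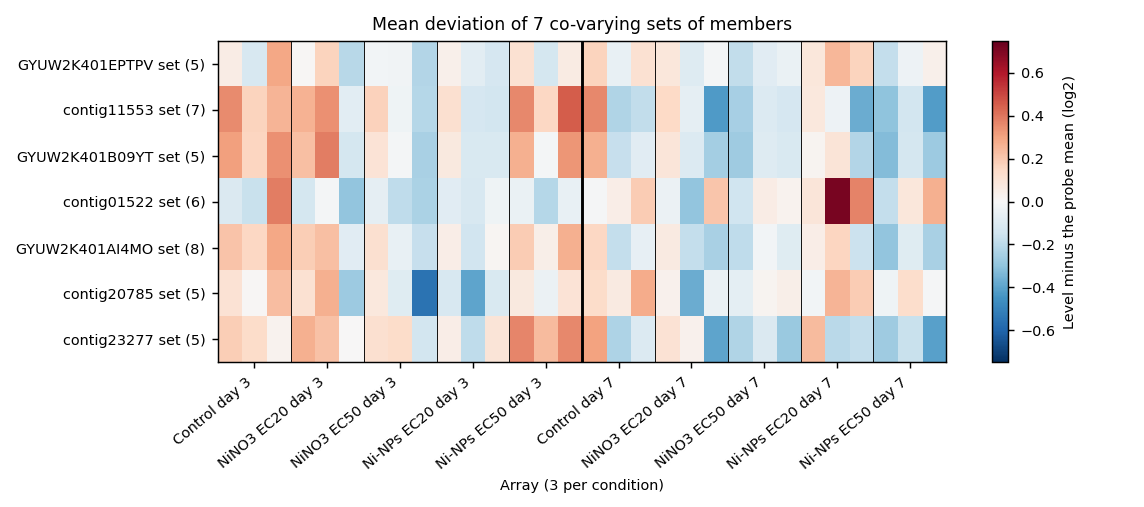
Mean deviation from the probe mean (log2, Median normalization) of the 7 sets of co-varying members on the 30 arrays, with the number of members in brackets and 3 arrays per condition; the thick line parts day 3 from day 7. The contig11553 and contig23277 sets are mostly above their mean at day 3 and below it at day 7, and the contig01522 set stands at 0.71 on 1 array of Ni-NPs EC20 at day 7.

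Single arrays also differed in the level of the members as a whole. The median over the 200 members lay between 8.48 (NiNO3 EC50 at day 3, replicate 3) and 8.85 (Ni-NPs EC50 at day 3, replicate 3). When each array was left out in turn, between 165 and 200 of the members kept all 8 differences below 0.4, and the lowest number was reached without the second day 3 control. Between 35 and 60 members were called in the treated day contrast.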

How the data were processed

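The files hold the scanner output of 30 one-colour Agilent arrays with 45167 spots each. The processed signal, as deposited by the authors, is the spot intensity on a linear scale, corrected for background and detrended by Agilent Feature Extraction 10.7.3.1, and not normalized between arrays. The series table repeats these intensity values in rounded form. Groups and replicates were taken from the labels. Probes were kept by the study's criterion, a signal positive and significant against background on every array, but over these 30 arrays rather than over all its samples. The study's MedianCD and SVCD code was run on these 10 conditions alone, so the probe set and the normalization differ from those of the whole dataset. Levels were fitted with limma 3.58.1 in R 4.3.3, with a mean per condition over all 30 arrays, and p-values were adjusted by Benjamini-Hochberg over 24653 probes per contrast, with a threshold of 0.05. The number of arrays limits the precision. The fit was tested on simulated data.

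The members, lists and tests were chosen with earlier results of these data known. The members named were those with the highest control level, with the smallest or largest SD, next to each limit, with the smallest adjusted p in a treatment, or with the largest rises and falls among those called in the control and the treated day contrast. The gene lists set up by key word and the rule for probes that share a name found no member, since the probes have no gene names and no shared names. Figures were drawn with matplotlib.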

Additional observations from a re-analysis of the deposited data

How the results depend on the processing

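The limits of these values are that the steady state is relative to the array median, that each condition had 3 arrays, and that slides were not balanced over the days. Leaving out the arrays in turn kept the probes and changed the members below 0.4 in all treatments to 165 to 200, the members shared with a list rebuilt by the same rule to 165 to 199, the median within-condition SD to 0.17 to 0.18, and the members called by day to 0 to 2 (controls), 35 to 60 (treated), 0 to 1 (NiNO3 EC20), 0 to 1 (NiNO3 EC50), 0 to 0 (Ni-NPs EC20) and 0 to 30 (Ni-NPs EC50), with none called in a treatment. Spike-in scaling left 1 member below 0.4, 1 shared with the rebuilt list, an SD of 0.44, and 1 (contig07198) and 0 members called by day in treated and in Ni-NPs EC50. Background correction by normexp (offset 50) gave 22, 22, 0.37, 5 and 0 in the same order. The cause of both was not tested. With spike-in scaling 4.72% of all probes were called by day in treated animals.

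The other counts of members called by day that moved by over 1.5 times were as follows. In the controls they were 1 with Quantile, 10 with MedianCD, 2 with SVCD, 3 with probes well above background, 1 with the scan day as a block and 1 on the first scan day alone, against 0. In treated animals they were 93 with MedianCD, 98 with SVCD, 9 without the filter on significance, 7 with the slide as a block, 7 on the first scan day alone, 30 without NiNO3 EC50 and 11 without Ni-NPs EC50, against 48. Of all probes, 44.3% were called there with MedianCD and 45.7% with SVCD, against 31.9%, and those for the slide block and the first scan day are given above. In NiNO3 EC20 they were 17 with MedianCD and 10 with SVCD, against 0. In NiNO3 EC50 they were 2 with Quantile, 1 with the 75th percentile, 3 with MedianCD, 3 with SVCD, 3 with probes well above background, 5 with the scan day as a block and 1 on the first scan day alone, against 0. In Ni-NPs EC50 they were 1 with Quantile, 13 with the 75th percentile, 12 with MedianCD, 36 with SVCD, 0 without the filter, 0 with the slide as a block, 11 with the scan day as a block and 4 on the first scan day alone, against 23. The cause was not tested. For the other counts of members called by day in this section, the share of all probes is not given. They are not read as particular to the members. The first scan day alone, the omission of a treatment and the day contrast of each single treatment were chosen after seeing the data.

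The correlation between same-numbered arrays lay between -0.36 and 0.46 over 39 pairs in the groups compared and was above 0.1 in 15. The replicate numbers were not taken as pairs. With the replicate block 1 member was called by day in the controls (contig07198), 56 in treated animals and 39 in Ni-NPs EC50. For the 8 members named as the largest called rises and falls in the treated day contrast, that difference kept its sign under every alternative run. It missed the threshold in 28 of 144 values under the other alternatives, and in none when a single array was left out. Neither the treatment differences of single named members nor the day differences of the other named members were followed through all of the alternatives.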
